A study of Rattus norvegicus with 25 samples.

Results

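The gingiva of rats treated with a hydrogel carrying both curcumin and zinc oxide nanoparticles (Cur/ZNP gel) was compared with that of rats treated with a hydrogel carrying curcumin alone (Cur gel). The 5 Cur/ZNP gel libraries and the 5 Cur gel libraries were taken by their treatment labels from the 25 libraries of the series, and transcript values were summed per gene. Of 30214 genes, 16062 reached 2 CPM (reads scaled to a common library total) in at least 1 of the 25 libraries and were tested. The other 15 libraries came from sham rats, rats with experimental periodontitis and no drug (EP) and rats given zinc oxide gel alone (ZNP gel), 5 of each. They entered the model for its estimate of the spread, and they also counted in this filter and in the scaling of the counts.

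All animals were wild-type Sprague-Dawley rats labelled 6 weeks old, whereas the study's methods give an older age and state that they were male. In both gel groups periodontitis was induced with silk ligatures around the upper first molars of both sides and Porphyromonas gingivalis, and 200 µL of gel was injected into the pockets weekly for 4 weeks. The Cur gel held 2 mg/mL curcumin and no zinc oxide. The Cur/ZNP gel held 1 mg/mL curcumin and 1 mg/mL zinc oxide. The comparison therefore joins less curcumin with the presence of zinc oxide, and their parts cannot be told apart. Each library stands for 1 rat, and whole gingiva was sequenced as total RNA after removal of ribosomal RNA, so that fewer cells of a type and less RNA per cell cannot be told apart.

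Gingiva is a stratified keratinizing epithelium resting on a collagen-rich connective tissue, with vessels, nerves and resident immune cells. Nearby oral mucosa holds minor salivary glands and is underlain in places by skeletal muscle. Curcumin is a plant polyphenol known for effects on NF-kB and NRF2 signalling, and zinc released from zinc oxide is buffered by metallothioneins and moved across membranes by the Slc30a exporters and Slc39a importers.

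Gene reads per library ranged from 61098643 to 68583320 with Cur gel and from 58815120 to 62712128 with Cur/ZNP gel. The defining genes of oral epithelium were present in every library of both groups. Krt5 ranged from 55398 to 143530 normalized counts with Cur gel and from 65057 to 126124 with Cur/ZNP gel. Krt13 ranged from 119840 to 493154 and from 190922 to 719292. Outside the comparison, 3 libraries (sham 4, EP 3 and EP 4) stood apart, with 40.7% to 51.0% of their reads in 10 genes.

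No gene passed the test between the groups. Limma on log2(normalized count + 1) called 0 of 16062 genes (0%) at an adjusted p under 0.05, and the smallest adjusted p was 0.293. At an unadjusted p under 0.05, 568 genes were higher in the Cur/ZNP gel group, or 3.54% of the genes tested, and 1211 were lower, or 7.54%. Every Cur/ZNP gel library lay above every Cur gel library for 241 genes (1.5%) and below for 170 genes (1.06%). All values below are levels and differences of genes that did not pass the adjusted test, and each unadjusted p is read against these shares. The 95% interval of the difference lay within a 2-fold change for 10043 genes (62.5%), and the median half-width of that interval was 0.52 on the log2 scale. Other tools differed in their calls. EdgeR called 0 genes, with 722 higher and 863 lower with an unadjusted p below 0.05. DESeq2 called 5 of 16049 genes, or 0.0312%, of which 3 had values of 0 in most of the 10 libraries. In fits added after the data were seen, DESeq2 on the 10 libraries alone called 350 genes, limma with a weight for each library called 1291 over all 25 libraries, and the same weighted fit over the 10 libraries alone called 0.

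**Figure D1:**
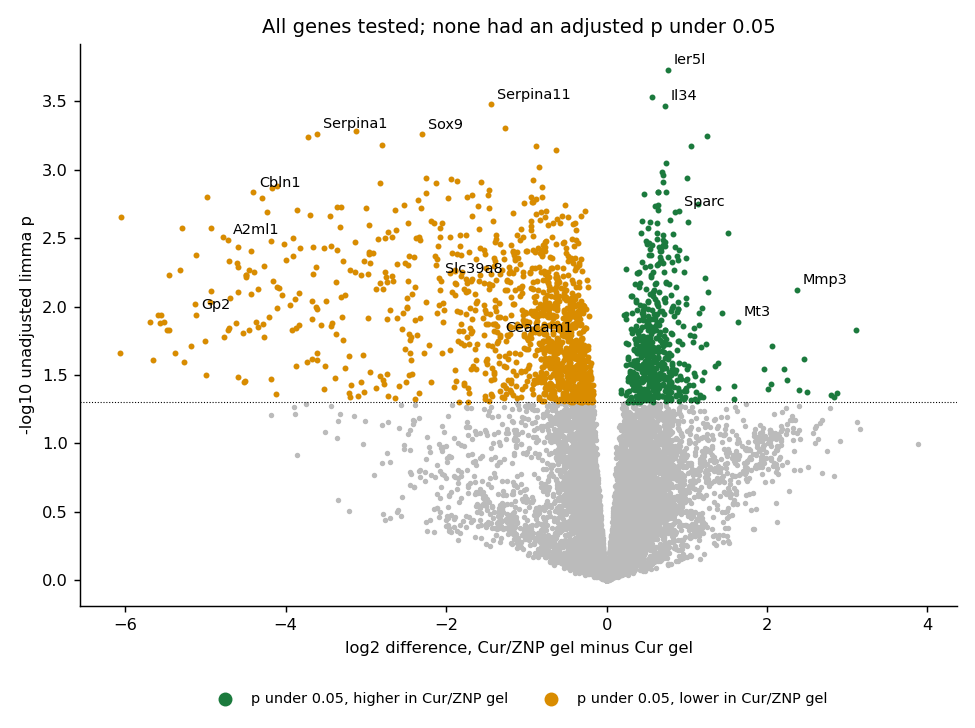
Each of the 16062 genes is plotted by its log2 difference, Cur/ZNP gel minus Cur gel, and by -log10 of its unadjusted limma p, with the dotted line at p of 0.05. Genes below the line are grey. The lower genes reach far past 4-fold, while few of the higher genes do.

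Lower and higher genes differed in size. Among those at an unadjusted p under 0.05, the median log2 difference was -0.76 for the lower genes and 0.58 for the higher genes, and 228 lower genes but 13 higher genes were past 4-fold. For 1002 of the 1211 lower genes (82.7%), replicates 2 and 3 were the 2 highest of the 5 Cur/ZNP gel libraries, against 18 of the 568 higher genes (3.17%) and 3316 of all 16062 genes (20.6%). Both of these libraries lay above every Cur gel library for 209 of the 568 higher genes (36.8%), which were chosen by the same difference, and for 603 of all genes (3.75%). Both lay below every Cur gel library for 123 of the 1211 lower genes (10.2%) and for 433 of all genes (2.70%).

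The genes of glands showed this split between libraries most plainly. Muc5b encodes the gel-forming mucin of saliva, Bpifb2 and Gp2 encode secretory proteins, and Smgc encodes a mucin-like protein of rat and mouse salivary glands. Muc5b was between 2402330 and 5966410 normalized counts in the 5 Cur gel libraries. It was 22793, 2951080, 4143720, 21694 and 1797 in Cur/ZNP gel replicates 1 to 5. The log2 difference was -4.99 with an SE of 2.17, and limma gave an unadjusted p of 0.0314 and an adjusted p of 0.393. Gp2, Bpifb2 and Smgc differed by -5.11, -5.38 and -6.06 on the log2 scale, and of these only Smgc did not overlap between the groups. Summed over the salivary secretion list, such genes took 7.32%, 6.28%, 7.29%, 16.0% and 7.07% of reads in Cur gel replicates 1 to 5. They took 0.2%, 6.98%, 10.3%, 0.176% and 0.0944% in Cur/ZNP gel replicates 1 to 5. All Cur gel libraries and Cur/ZNP gel replicates 2 and 3 thus held much salivary message, and the other 3 Cur/ZNP gel libraries held little. Of 10 tested genes of odorant-binding and nasal gland secretion, 3 were lower and 0 higher with an unadjusted p below 0.05. Of the same 10, 6 had a positive and 4 a negative difference, with a median of 0.85. Low salivary libraries also occurred in other groups, at 0.3265% in sham 1, 0.106% in sham 3, 0.623% in sham 4, 0.563% in EP 4 and 0.559% in ZNP gel 3. Of these, sham 4 and EP 4 had 21.7% and 20.5% of reads in the odorant-binding and nasal list. Their genes of simple and glandular epithelium summed to 4614 and 4312 CPM, against 386 to 691 CPM in Cur/ZNP gel replicates 1, 4 and 5. Sham 1, sham 3 and ZNP gel 3 held 1049, 497 and 633 CPM of them. Of the 14 tested members of the salivary secretion list, 7 were lower and 1 was higher with an unadjusted p below 0.05. The higher member was Cst3, the secreted protease inhibitor cystatin C, which many tissues make and which averaged 40008 ± 3268 normalized counts with Cur gel and 51706 ± 5859 with Cur/ZNP gel (SD, n = 5).

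**Figure D2:**
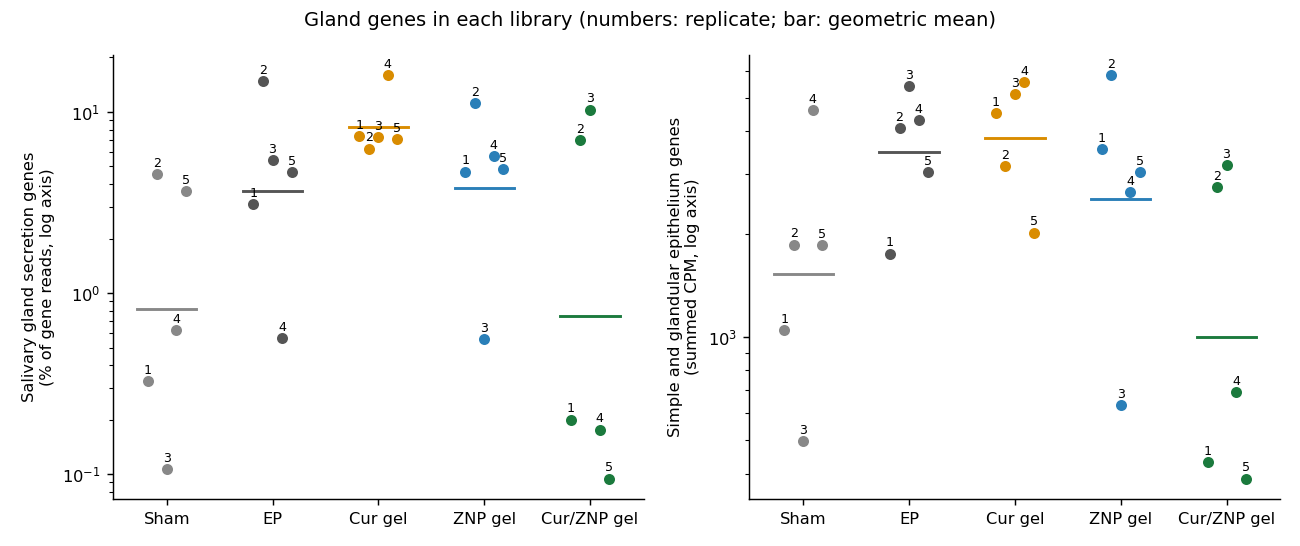
The left panel gives the share of gene reads, in percent on a log axis, from salivary gland secretion genes in each of the 25 libraries, and the right panel gives the summed CPM of simple and glandular epithelium genes, also on a log axis. Numbers are replicates and bars are geometric means, and in both panels Cur/ZNP gel replicates 1, 4 and 5 lie below every Cur gel library.

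The epithelium that lines ducts and glands followed the secretions. Of the 23 members of the simple and glandular epithelium list, 14 were lower and 0 higher with an unadjusted p below 0.05, with a median log2 difference of -2.45 beside 0.01 over all genes. Krt18, a keratin of simple epithelia, was 9175, 9132, 11607, 17608 and 5650 normalized counts in Cur gel replicates 1 to 5. It was 57.4, 5416, 7149, 464 and 45.6 in Cur/ZNP gel replicates 1 to 5. Of these 5, replicate 3 lay within the Cur gel range, replicate 2 just below it and the others far below. Its log2 difference was -4.18 with an SE of 1.27 (limma, unadjusted p = 0.0033, adjusted p = 0.293). Krt8, the partner of Krt18 in simple epithelia, did not overlap between the groups, at 7902 to 18460 against 141 to 7664. Spdef, a transcription factor of secretory cells, differed by -4.78 with an SE of 1.44. Sox9, a transcription factor of gland and duct progenitors that cartilage and hair follicles also use, averaged 1826 ± 378 against 623 ± 616 normalized counts (SD, n = 5). Its log2 difference was -2.30 with an SE of 0.57 (limma, unadjusted p = 0.000547, adjusted p = 0.293).

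Several of the genes of smallest p that did not overlap between the groups had the same order of libraries. Serpina1 encodes alpha-1-antitrypsin, an inhibitor of neutrophil elastase, at Rnor_6.0 chromosome 6. It was 7611, 11595, 15555, 12985 and 5068 normalized counts in Cur gel replicates 1 to 5 and 243, 4341, 4656, 453 and 149 in Cur/ZNP gel replicates 1 to 5. Its log2 difference was -3.61 with an SE of 0.89 (limma, unadjusted p = 0.000546, adjusted p = 0.293). A2ml1, a broad protease inhibitor of epithelia, ranged from 13970 to 77834 with Cur gel and from 67.0 to 9805 with Cur/ZNP gel. Noxa1, an activator of the NADPH oxidase of epithelia, ranged from 317 to 736 and from 0 to 269. For each of these, Cur/ZNP gel replicates 2 and 3 were the highest of their group and still below the lowest Cur gel library. The part of the gland level in these differences was not tested.

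A pair of smaller lower differences, those of Aqr and Eif3c, were more even across the 5 Cur/ZNP gel libraries. Aqr encodes an RNA helicase of the spliceosome and was 2939, 2559, 2771, 2663 and 2607 normalized counts in the Cur gel replicates and 2146, 2231, 2301, 2304 and 2262 in the Cur/ZNP gel replicates. The groups did not overlap, the log2 difference was -0.27 with an SE of 0.08, and limma gave an unadjusted p of 0.002. Eif3c, a subunit of a translation initiation factor, ranged from 12279 to 14344 and from 10275 to 11375, a log2 difference of -0.31. Patj, Ccm2, Slc25a15, Zfp623, Gramd2a and Serpina11 kept the order of the gland genes, with Cur/ZNP gel replicates 2 and 3 the 2 highest of their group. Patj, a scaffold of epithelial tight junctions and polarity, averaged 2917 ± 396 and 1907 ± 417 (SD, n = 5). Ccm2, an adaptor of endothelial junction signalling, averaged 2443 ± 437 and 1481 ± 304. Slc25a15, the mitochondrial ornithine carrier, differed by -0.48, and the zinc finger gene Zfp623 by -0.83. Gramd2a and Serpina11 differed by -1.68 and -1.44. Gramd2a was 166 and 123 in Cur/ZNP gel replicates 2 and 3 and 32.7 to 74.8 in the other 3. Serpina11 lay between 158 and 253 in the Cur gel group and between 27.8 and 125 in the Cur/ZNP gel group.

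Cbln1, a secreted synaptic organizer of the complement C1q family, did not overlap but varied widely within the Cur gel group. It was 107, 1177, 1820, 60.6 and 115 normalized counts in Cur gel replicates 1 to 5 and 0, 24.0, 22.2, 31.6 and 19.8 in Cur/ZNP gel replicates 1 to 5. Limma gave an unadjusted p of 0.00146 and an adjusted p of 0.293. It was 1 of the 5 genes that DESeq2 called.

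Ceacam1 is among the genes the study followed. It encodes a cell adhesion receptor with inhibitory signalling, carried by epithelia, endothelium and leukocytes, and lies at Rnor_6.0 chr1:82327955-82344345. It was 2505, 2675, 3634, 3338 and 1966 normalized counts in Cur gel replicates 1 to 5. It was 704, 2481, 2143, 791 and 527 in Cur/ZNP gel replicates 1 to 5. Cur/ZNP gel replicates 2 and 3 lay within the Cur gel range and the other 3 lay below it, the same split as for the gland genes. The log2 difference was -1.33 with an SE of 0.52, and limma gave an unadjusted p of 0.0167 and an adjusted p of 0.325. An exact two-sided permutation test over all splits of these 10 libraries into 5 and 5 gave p = 0.0397, where 0.00794 is the smallest the design allows. The mean was 3378 in the EP group and 2200 in the ZNP gel group. The part of the salivary level in the Ceacam1 difference was not tested.

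Most Ceacam1 counts came from 1 of its 4 listed transcripts, ENSRNOT00000090629.1, which averaged 2392 ± 646 with Cur gel and 1008 ± 857 with Cur/ZNP gel (SD, n = 5). Transcript ENSRNOT00000051892.6 averaged 407 ± 40.2 and 277 ± 102. Tested transcript by transcript, the log2 differences were -1.66 and -0.67, with limma adjusted p of 0.775 and 0.773. Cd47, a receptor that signals against phagocytosis and takes part in osteoclast formation, averaged 4872 ± 743 and 3977 ± 909 as a gene, a log2 difference of -0.31 with a limma unadjusted p of 0.243. Its transcript ENSRNOT00000078221.1 averaged 1200 ± 379 and 494 ± 261, a log2 difference of -1.38 with a limma unadjusted p of 0.0147 and an adjusted p of 0.387. Of the 21 tested genes that restrain osteoclasts and bone resorption, Ceacam1 alone was past an unadjusted p of 0.05, or 4.76%, beside 7.54% lower of all genes. Of the 4 tested Ceacam family genes likewise Ceacam1 alone was past it. Ceacam4 differed by -1.36 with a wider SE of 0.90 (limma, unadjusted p = 0.1445), and 2 of the 4 had a positive difference.

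**Figure D3:**
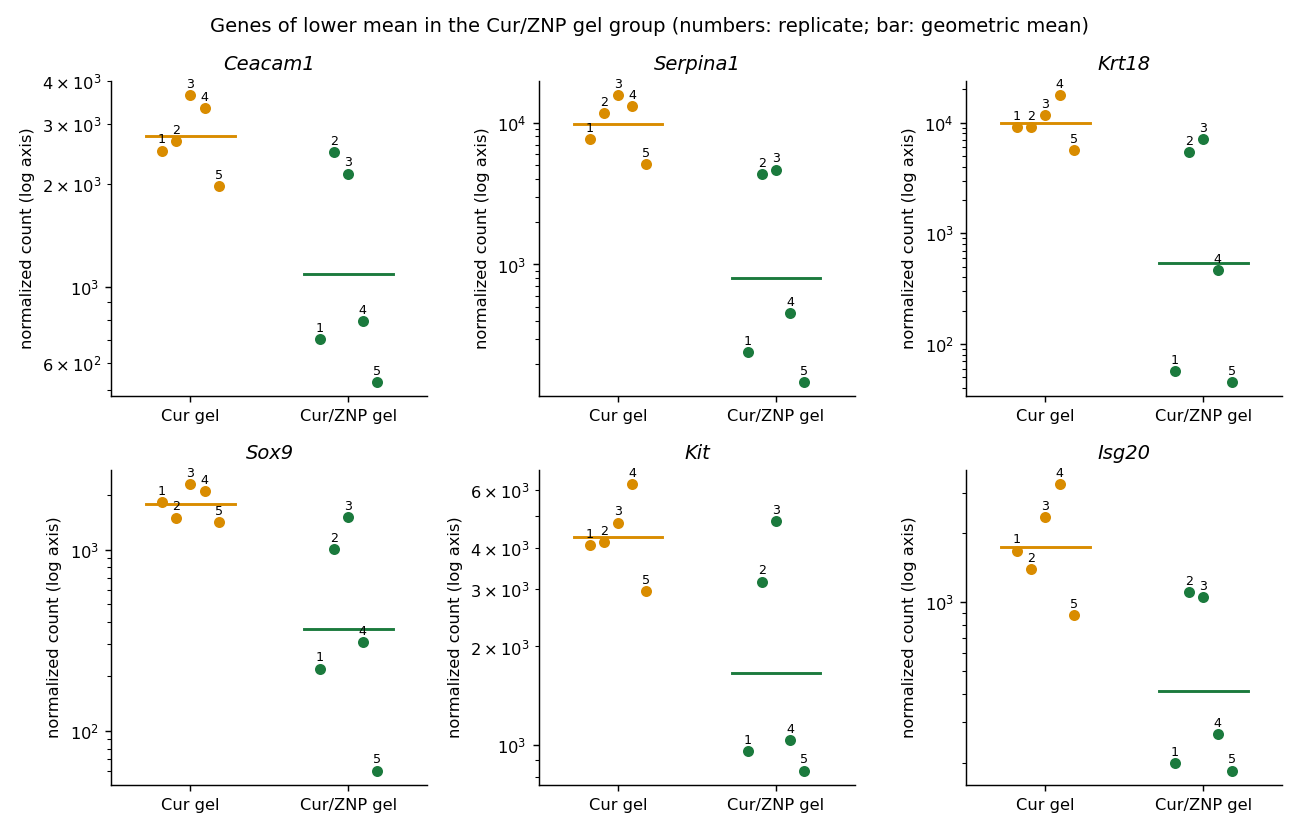
Normalized counts of 6 genes are plotted on log axes for the 5 Cur gel and 5 Cur/ZNP gel libraries, with replicate numbers beside the points and geometric means as bars. In each panel Cur/ZNP gel replicates 2 and 3 are the 2 highest of their group and replicates 1, 4 and 5 are the lowest.

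Genes of the connective tissue matrix pointed the other way, with higher levels in the Cur/ZNP gel group. All 19 tested collagen chains had a positive difference, with a median of 0.53 on the log2 scale beside 0.01 over all genes, and 4 were higher and 0 lower with an unadjusted p below 0.05. Sparc, a collagen-binding matrix protein, was 51576, 47044, 70697, 46237 and 53872 normalized counts in Cur gel replicates 1 to 5. It was 89014, 137514, 89557, 115989 and 76836 in Cur/ZNP gel replicates 1 to 5. The groups did not overlap. The log2 difference was 0.90 with an SE of 0.26 (limma, unadjusted p = 0.00202, adjusted p = 0.293). Cur/ZNP gel replicate 2, a library rich in gland message, was the highest for Sparc but not for the collagen list. Summed over that list, Cur/ZNP gel replicates 1 to 5 held 8719, 5961, 8146, 10422 and 5155 CPM. Cur gel libraries held 3521 to 5941 CPM. Dcn, the collagen-binding proteoglycan decorin, was 34386 to 57545 with Cur gel and 64332 to 80930 with Cur/ZNP gel. Col15a1, a collagen of basement membrane zones, averaged 3499 ± 1048 and 6071 ± 378 (SD, n = 5), again without overlap. Col3a1, a main fibrillar collagen of gingiva, did not overlap either, but by a narrow margin, the highest Cur gel library being 110694 and the lowest Cur/ZNP gel library 111057. Col1a1 averaged 51386 ± 9192 and 106997 ± 46793 and overlapped through Cur/ZNP gel replicate 5, at 47655. Col28a1, a collagen of peripheral nerve and other sites, averaged 699 ± 114 and 1428 ± 370, a log2 difference of 1.00 with an SE of 0.27.

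Other matrix genes were more mixed. Of 30 tested fibroblast matrix proteins and crosslinkers, 9 were higher and 1 lower with an unadjusted p below 0.05, with a median of 0.39. The lower member, P4ha2, encodes a collagen prolyl hydroxylase that gland cells and other secretory cells also use, and its 2 highest Cur/ZNP gel libraries were replicates 2 and 3, at 4274 and 6027. Of 16 genes of fibroblast identity, 4 were higher and 0 lower, with a median of 0.53. The receptor Pdgfrb, found on fibroblasts and pericytes, ranged from 3534 to 5190 with Cur gel and from 5981 to 7346 with Cur/ZNP gel. Thy1, a surface protein of fibroblasts, T cells and neurons, averaged 2296 ± 974 and 4049 ± 519 (SD, n = 5). Twist1, a transcription factor of mesenchyme, averaged 669 ± 126 and 1066 ± 333, and the receptor Pdgfra averaged 4841 ± 1328 and 6775 ± 889.

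Matrix proteases were also at higher mean levels. Of 21 tested proteases and inhibitors, 4 were higher and 0 lower, with a median of 0.42. Htra1, a secreted serine protease that cleaves matrix proteins, was 6437, 5533, 5704, 5360 and 5736 normalized counts in Cur gel replicates 1 to 5. It was 9524, 8809, 8052, 10145 and 8505 in Cur/ZNP gel replicates 1 to 5. The groups did not overlap, with a log2 difference of 0.64 and an SE of 0.18 (limma, unadjusted p = 0.00146, adjusted p = 0.293). Mmp19, a metalloproteinase of basement membrane substrates, ranged from 508 to 694 and from 730 to 944. Mmp3, stromelysin, varied widely, at 42.6, 1338, 518, 57.9 and 628 with Cur gel and 2427, 363, 1658, 1883 and 1501 with Cur/ZNP gel. Its lowest Cur gel libraries, replicates 1 and 4, were also the libraries with little skeletal muscle message, at 1761 and 223 CPM summed over the muscle list against 27889 to 47376 in the other 3. Scpep1, a serine carboxypeptidase of lysosomes, averaged 5128 ± 491 and 7127 ± 1032 without overlap.

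Secreted signals included the 2 ligands of the receptor Csf1r, on which macrophages and osteoclast precursors depend. Il34 was 722, 657, 753, 498 and 652 normalized counts in Cur gel replicates 1 to 5 and 1284, 1196, 872, 1219 and 906 in Cur/ZNP gel replicates 1 to 5. Its groups did not overlap, and its log2 difference of 0.73 with an SE of 0.17 had a limma unadjusted p of 0.00034 and an adjusted p of 0.293. Csf1 averaged 2273 ± 358 and 2800 ± 279 (SD, n = 5), a log2 difference of 0.31 with a limma unadjusted p of 0.0471. Csf1r itself averaged 3181 ± 939 and 4054 ± 500, with a limma unadjusted p of 0.0787. Nbl1, a secreted antagonist of bone morphogenetic proteins, ranged from 4085 to 8804 with Cur gel and from 9050 to 10993 with Cur/ZNP gel. Bmp4, one such protein, averaged 1001 ± 298 and 1612 ± 493, and the alarmin Il33 averaged 4159 ± 848 and 6366 ± 1336. Of 25 tested cytokines and chemokines, 3 were higher and 0 lower, with a median of 0.03.

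**Figure D4:**
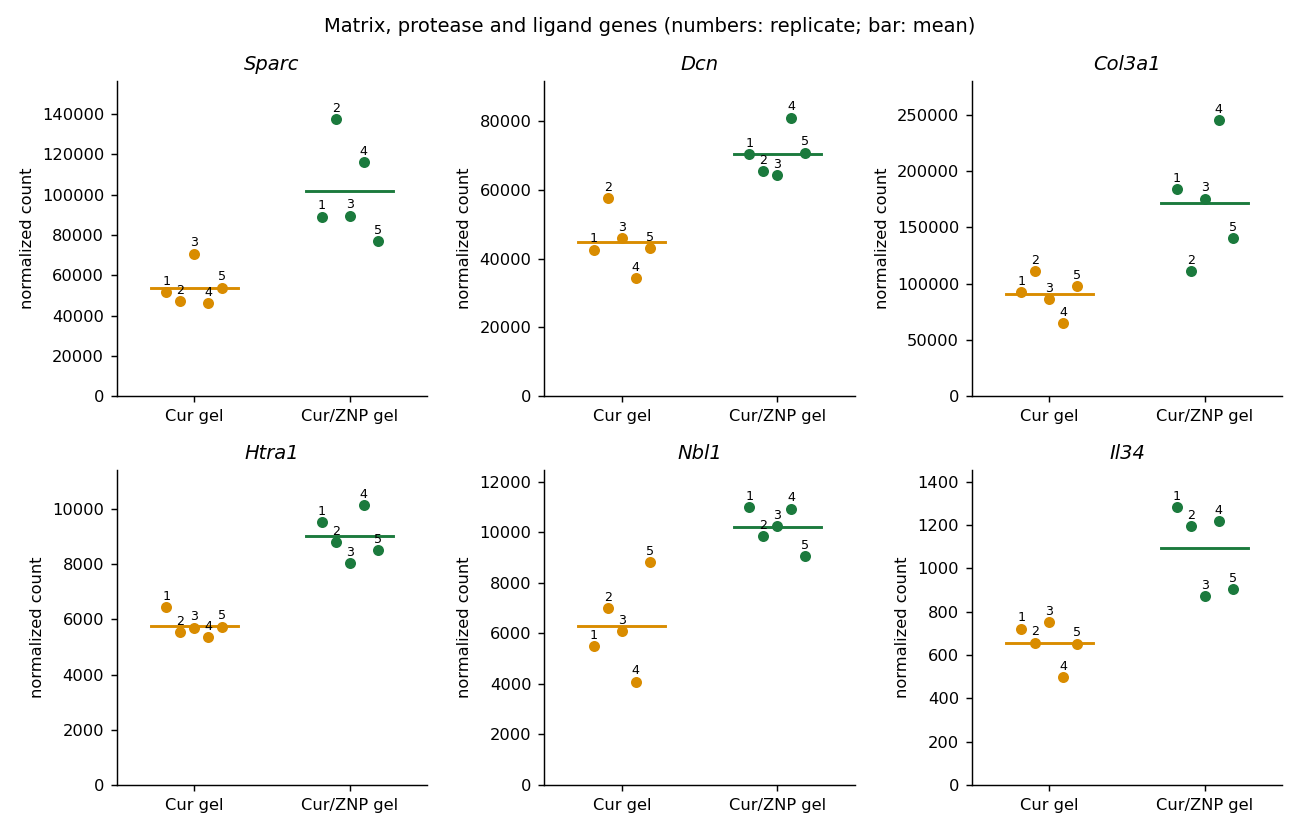
Normalized counts of 6 matrix, protease and ligand genes are plotted from 0 for the 5 Cur gel and 5 Cur/ZNP gel libraries, with replicate numbers beside the points and means as bars. In all 6 panels every Cur/ZNP gel point lies above every Cur gel point, most narrowly for Col3a1, at 111057 against 110694, and for Nbl1, at 9050 against 8804.

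Endothelial genes had as many members on the higher side as the matrix list. Of 21 tested genes of endothelium and lymphatics, 9 were higher and 0 lower with an unadjusted p below 0.05, with a median of 0.49. Sox17, a transcription factor of arterial endothelium, was 1004, 1119, 1023, 785 and 1304 normalized counts in Cur gel replicates 1 to 5. It was 2033, 1375, 1434, 1749 and 1577 in Cur/ZNP gel replicates 1 to 5, all above the highest Cur gel library. Plvap, a protein of fenestrated endothelium, averaged 5928 ± 968 and 9014 ± 2752 (SD, n = 5). Emcn, a sialomucin of veins and capillaries, averaged 2778 ± 271 and 3869 ± 532, and Pdpn, a marker of lymphatic endothelium that fibroblasts and basal epithelium also carry, averaged 917 ± 227 and 1311 ± 120. Ldb2, a cofactor of LIM-domain transcription factors, ranged from 1012 to 1279 and from 1662 to 2061. Kcnj8, a potassium channel subunit of pericytes, was the 1 of 13 tested genes of smooth muscle and pericytes past an unadjusted p of 0.05, with a log2 difference of 0.73. For the matrix, protease and endothelial genes alike, the part of the gland level in the differences was not tested.

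Fat and muscle genes had positive medians with few or no genes past the threshold. Pparg, the master regulator of adipocytes, averaged 432 ± 110 and 812 ± 288 (SD, n = 5) and was the only 1 of 14 tested adipocyte genes at an unadjusted p under 0.05. All 23 tested muscle genes had a positive difference, with a median of 1.80, and 0 were past that threshold. Their summed level ran from 223 to 47376 CPM with Cur gel and from 8985 to 62071 CPM with Cur/ZNP gel, so that the groups overlapped widely. The level of nerve message set 1 library apart. Cur/ZNP gel replicate 2 held 1223 CPM of neuron genes and 23719 CPM of Schwann cell and myelin genes. The other 9 libraries held 42 to 106 CPM and 689 to 7562 CPM.

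Zinc handling was followed through metallothioneins, which bind zinc, and through zinc transporters. Metallothionein promoters hold metal response elements, the binding motif of the zinc-sensing factor Mtf1, and the exporter gene Slc30a1 is a known target of the same factor. Mt3 is the brain-type metallothionein, known for responding little to metals. The 250 bases before the start of these 3 genes (RefSeq, build GRCr8) are shown to compare the motif between them, with the element's core in capitals. The core was searched as TGCACNC and TGCGCNC on both strands, and 6883 of 33469 promoters (20.6%) held at least 1 match.
Mt2A, chr19:10838709-10838958, minus strand, 4 matches: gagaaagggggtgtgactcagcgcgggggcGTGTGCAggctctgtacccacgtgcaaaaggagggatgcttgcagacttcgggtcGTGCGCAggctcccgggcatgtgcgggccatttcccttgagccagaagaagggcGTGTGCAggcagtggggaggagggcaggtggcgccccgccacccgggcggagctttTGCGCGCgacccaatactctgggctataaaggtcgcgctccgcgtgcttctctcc
Mt3, chr19:10856081-10856330, minus strand, 3 matches: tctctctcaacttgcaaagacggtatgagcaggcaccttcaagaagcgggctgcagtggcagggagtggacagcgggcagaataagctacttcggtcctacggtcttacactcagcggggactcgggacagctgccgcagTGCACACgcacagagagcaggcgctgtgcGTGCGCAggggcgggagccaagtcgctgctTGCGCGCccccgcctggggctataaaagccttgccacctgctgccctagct
Slc30a1, chr13:106021769-106022018, plus strand, 2 matches: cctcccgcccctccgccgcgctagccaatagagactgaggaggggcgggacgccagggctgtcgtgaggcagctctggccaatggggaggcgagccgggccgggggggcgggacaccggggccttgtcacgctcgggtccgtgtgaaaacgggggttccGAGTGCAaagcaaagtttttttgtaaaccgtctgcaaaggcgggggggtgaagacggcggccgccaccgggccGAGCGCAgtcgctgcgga

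The 3 genes had unlike differences. Mt2A was 5432, 3327, 3842, 4664 and 2232 normalized counts in Cur gel replicates 1 to 5 and 4367, 3061, 3202, 2976 and 4368 in Cur/ZNP gel replicates 1 to 5. Its ranges overlapped, with a log2 difference of -0.08 (95% interval -0.83 to 0.68) and a limma adjusted p of 0.969. Slc30a1 averaged 1819 ± 187 and 1893 ± 73.7 (SD, n = 5), a log2 difference of 0.06 (95% interval -0.47 to 0.60) and a limma adjusted p of 0.963. Mt3 was 344, 2088, 1370, 509 and 1365 with Cur gel and 4546, 2343, 2798, 1579 and 4309 with Cur/ZNP gel. Its log2 difference was 1.64 with an SE of 0.61 (limma, unadjusted p = 0.0129, adjusted p = 0.311). Its 2 lowest libraries, Cur gel replicates 1 and 4, were again those with little muscle message, and the part of that in the difference was not tested. The row named Mt1 lies on chromosome 17 of Rnor_6.0, away from Mt2A and Mt3 on chromosome 19, where RefSeq places Mt1 in GRCr8, so that its reads cannot be assigned to the gene of that cluster. That row averaged 925 ± 468 and 373 ± 118, a log2 difference of -1.19 with a limma unadjusted p of 0.00355 and an adjusted p of 0.293.

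Several zinc transporters followed the order of libraries seen for gland genes. Of 26 tested genes of zinc transport and metallothionein, 1 was higher and 7 lower with an unadjusted p below 0.05, with a median of -0.08. Slc39a8, an importer of zinc and manganese at the cell surface, was 3482, 3905, 3164, 5612 and 2340 in Cur gel replicates 1 to 5. It was 302, 2499, 3375, 460 and 346 in Cur/ZNP gel replicates 1 to 5. Replicates 2 and 3 lay within the Cur gel range, and the log2 difference was -2.09 with an SE of 0.69 (limma, unadjusted p = 0.00621, adjusted p = 0.293). Slc39a4, an importer of absorptive epithelia, ranged from 275 to 513 and from 0 to 278, with the same 2 libraries highest. The importer Slc39a14 and the transporter Slc39a11 differed by -0.58 and -0.80. Slc30a5 and Slc30a7, which load zinc into the secretory pathway, differed by -0.49 and -0.58. In all 6 transporters Cur/ZNP gel replicates 2 and 3 were the 2 highest of their group. The part of the gland level in these differences was not tested.

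**Figure D5:**
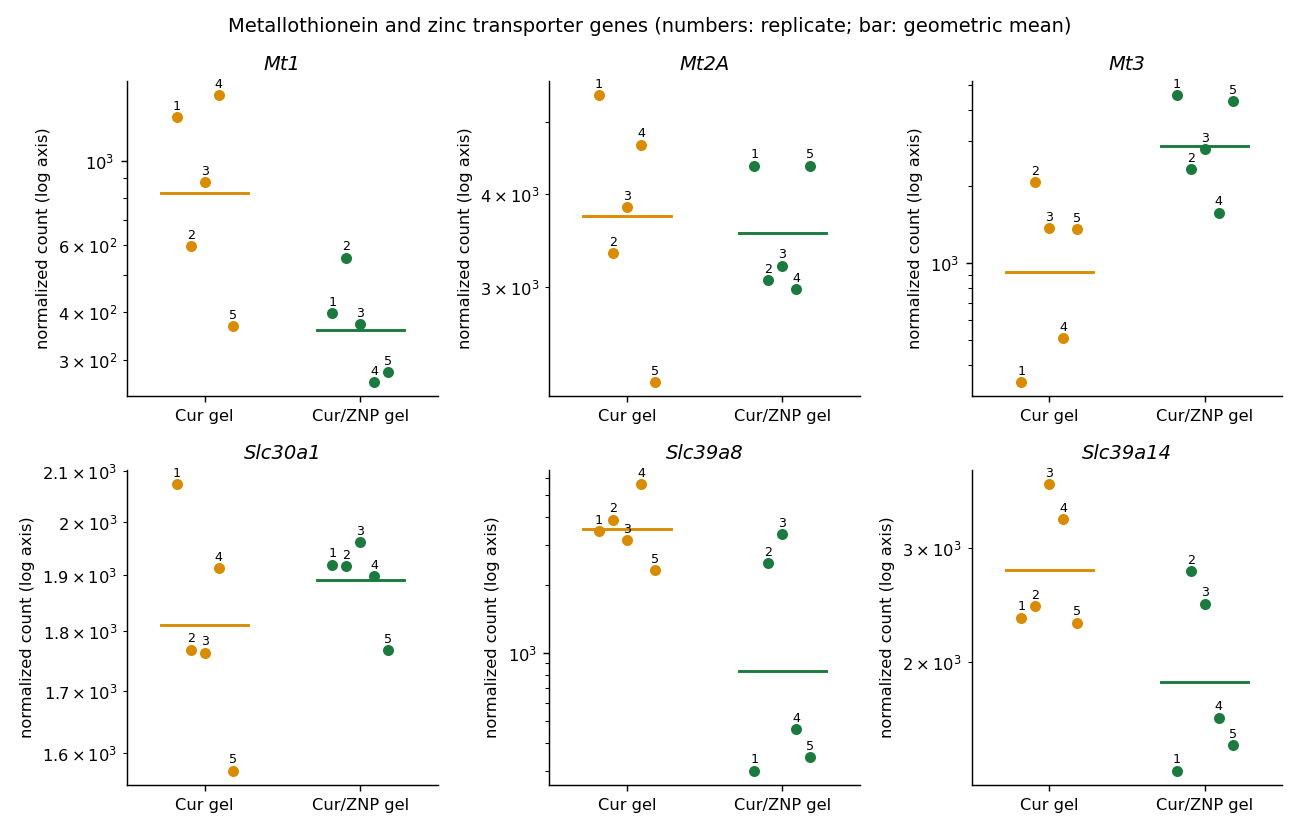
Normalized counts of 3 metallothionein rows, the exporter gene Slc30a1 and the importer genes Slc39a8 and Slc39a14 are plotted on log axes for the 5 Cur gel and 5 Cur/ZNP gel libraries, with replicate numbers beside the points and geometric means as bars. Mt2A and Slc30a1 overlap between the groups, Mt3 has the higher mean in the Cur/ZNP gel group with some overlap, and for Slc39a8 Cur/ZNP gel replicates 1, 4 and 5 lie below every Cur gel library, at 302 to 460 against 2340 to 5612.

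Among bone genes, single members lay on either side. Of 14 tested osteoclast genes 1 was higher and 1 lower with an unadjusted p below 0.05 (7.14% each). Of 18 genes of osteoblasts and mineralized matrix likewise 1 and 1 were (5.56% each), beside 3.54% higher and 7.54% lower of all genes. Of the osteoclast genes 11 had a positive difference, with a median of 0.29. Of the osteoblast and mineralized matrix genes 13 did, with a median of 0.40. Ctsk, the collagen-degrading cathepsin of osteoclasts that fibroblasts also make, was 2838, 1939, 2607, 2000 and 1948 in Cur gel replicates 1 to 5. It was 9584, 2295, 3872, 3987 and 2120 in Cur/ZNP gel replicates 1 to 5, with replicate 1 far above the rest. Acp5, the acid phosphatase of osteoclasts, averaged 5573 ± 1940 and 3220 ± 1560 (SD, n = 5). Alpl, an alkaline phosphatase of osteoblasts and several epithelia, averaged 1790 ± 713 and 928 ± 708. Tnfrsf11b, which encodes osteoprotegerin, averaged 721 ± 254 and 1082 ± 713, a log2 difference of 0.46 with a limma unadjusted p of 0.185. Bglap, which encodes osteocalcin, averaged 520 ± 314 and 372 ± 321, with a limma unadjusted p of 0.441. Mmp9, a gelatinase of osteoclasts and neutrophils, was 3715 in Cur/ZNP gel replicate 1 and 934 in replicate 2, and the other 8 libraries lay between 35.6 and 286.

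For genes of inflammation, counts at an unadjusted p under 0.05 are set beside 3.54% higher and 7.54% lower of all genes. The cytokine gene Il1b ranged from 79.6 to 947 with Cur gel and from 63.5 to 2828 with Cur/ZNP gel, a log2 difference of 0.19 (95% interval -1.60 to 1.98). Tnf averaged 29.7 ± 25.5 and 30.6 ± 29.9 (SD, n = 5), a log2 difference of 0.03 (95% interval -1.57 to 1.64). Both intervals reach past a 2-fold change in each direction, and the sign of both differences turned when 1 of several libraries was left out. Il4 had 0 reads in all 10 libraries and Il6 at most 34, so neither entered the test. Of the immune lists, T and natural killer cells had 0 of 22 genes past an unadjusted p of 0.05 and antigen presentation 0 of 22. Macrophages had 1 lower of 17 (5.88%), neutrophils 1 lower of 11 (9.09%) and interferon-stimulated genes 1 lower of 22 (4.55%). These 3 were Cd14, a coreceptor for endotoxin, Lcn2, an iron-sequestering protein of neutrophils and epithelia, and Isg20, an exonuclease. In each, Cur/ZNP gel replicates 2 and 3 were the highest of their group. B and plasma cells had 1 lower of 19 (5.26%), Xbp1, a factor of secretory cells. In that list 18 genes had a negative and 1 a positive difference, with a median of -0.97. Among 12 mast cell genes 2 were higher (16.7%) and 1 lower (8.33%), and 9 had a positive and 3 a negative difference, with a median of 0.59. The higher ones, Hdc and Gata2, differed by 1.2 and 0.64. The lower one, the receptor gene Kit, was 957, 3155, 4827, 1033 and 836 in Cur/ZNP gel replicates 1 to 5 against 2955 to 6259 in the Cur gel group. The complement protease gene C1r did not overlap, at 8830 to 11676 against 13469 to 19520, while the complement gene C5 was lower, with 0 counts in Cur/ZNP gel replicate 4 and 1 higher and 1 lower of 25 complement genes in all.

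For the pathways for which curcumin is known, counts at an unadjusted p under 0.05 are set beside 3.54% higher and 7.54% lower of all genes. Among 25 tested NRF2 targets, 0 were higher and 2 lower (8%), with a median of 0.05. These were Gpx2, a glutathione peroxidase, at 6230 ± 1955 and 3755 ± 639 (SD, n = 5), and Gsr, glutathione reductase, at 3113 ± 509 and 2356 ± 403. Among 21 genes of Toll-like receptors and NF-kB, 1 was higher (4.76%) and 2 lower (9.52%). The adaptor gene Myd88 averaged 2001 ± 155 and 2360 ± 140, and the endotoxin receptor gene Tlr4 averaged 862 ± 204 and 634 ± 103. Of 21 immediate early genes, induced within minutes of stress or handling, 2 were lower (9.52%, beside 7.54% of all genes). The median of the list was -0.24. Fosb was 721, 245, 865, 148 and 950 in Cur gel replicates 1 to 5 and 99.1, 90.2, 382, 112 and 281 in Cur/ZNP gel replicates 1 to 5. Fos averaged 2807 ± 1340 and 1400 ± 529, beside 965 in the EP group and 860 in the ZNP gel group. Of 19 clock genes, 1 was past the threshold, the repressor gene Nr1d1, at 5384 to 7696 with Cur gel and 7916 to 10889 with Cur/ZNP gel. Of 20 tested genes of endoplasmic reticulum stress and heat shock, 0 were higher and 3 lower, namely Pdia4, Atf4 and Xbp1, with log2 differences of -0.79, -0.61 and -1.12. The aryl hydrocarbon receptor pathway had 0 of 9 past the threshold and the glucocorticoid response 1 higher of 14.

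Keratinocyte lists had small positive medians, beside 0.01 over all genes. Basal and hemidesmosome genes had 0 of 13 past an unadjusted p of 0.05, with a median of 0.05. Differentiated keratinocyte and cornified envelope genes had 0 of 25, with a median of 0.20. Members of the latter list ran from -1.16 for Krt2 to 0.91 for Krt4, with SEs of 0.88 and 0.81. Ribosomal proteins had 0 of 23, oxidative phosphorylation 0 of 22 with a median of 0.38, and erythrocytes 0 of 6. Proliferation had 1 lower of 24, the mitotic kinase gene Plk1, which averaged 1253 ± 488 and 595 ± 463 (SD, n = 5). Cdc45, a replication factor, averaged 2181 ± 337 and 3396 ± 539 and did not overlap.

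The smallest unadjusted p on the higher side, 0.000185 by limma, was that of Ier5l, a gene of the immediate early response family. Ier5l was 321, 366, 334, 314 and 441 normalized counts in Cur gel replicates 1 to 5 and 682, 573, 512, 581 and 672 in Cur/ZNP gel replicates 1 to 5. The groups did not overlap and the log2 difference was 0.77 with an SE of 0.17. The EP and ZNP gel means, 465 and 490, lay between them. Ier5l was also among the 5 genes called by DESeq2. The others included Cbln1, Adam7 and LOC108352727. Adam7, a protein of the metalloprotease family, was 8.63 in Cur gel replicate 3 and 0 in the other 9 libraries. LOC108352727, an uncharacterized locus, was 7.01, 10.2 and 4.65 in Cur/ZNP gel replicates 2, 3 and 4 and 0 in the other 7. Gnb4, a G protein subunit, ranged from 250 to 354 and from 374 to 654. Mycbpap, which encodes a MYC-binding-protein partner, averaged 152 ± 39.0 and 312 ± 51.7 (SD, n = 5), a log2 difference of 1.05 with an SE of 0.27.

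The EP and ZNP gel groups gave a frame for these levels. The EP means given here and above include EP 3 and EP 4, which stood apart. Summed over the fibroblast matrix proteins and crosslinkers, EP 1 to 5 held 6159, 3790, 2782, 2174 and 3659 CPM. ZNP gel 1 to 5 held 4738, 3388, 8386, 4666 and 3660 CPM. ZNP gel 3 thus lay above every Cur/ZNP gel library, which held 5534 to 7385 CPM. Over the collagen list, EP libraries held 2492 to 7979 CPM and ZNP gel libraries 3337 to 9283 CPM, against 5155 to 10422 CPM with Cur/ZNP gel. For Sparc the EP mean was 64912 and the ZNP gel mean 61944, both nearer to the Cur gel mean of 53885 than to the Cur/ZNP gel mean of 101782. Dcn was 33979 in the EP group and 45712 in the ZNP gel group, so that its level in the Cur/ZNP gel group, 70358 ± 6560 (SD, n = 5), was the highest mean of these 4 groups.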

How the data were processed

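Gingiva was sequenced from 25 rats, 5 in each of 5 groups, and 10 libraries entered the comparison. The authors deposited 1 table of normalized counts per transcript (signal: counts divided by size factors). The submitters' processing notes name Rnor_6.0 and DESeq2, and the aligner is not given in the sources used here. The table held 41078 transcripts and 840 blank lines, and 396 transcripts had no symbol. In every library the values were whole multiples of 1 step (100% of values within a tolerance of 0.01), so that whole reads were recovered for edgeR and DESeq2, with 0 columns left unmapped. Transcripts were summed per symbol to 30214 genes, and genes with at least 2 CPM in at least 1 library were kept.

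The main test was limma 3.58.1 in R 4.3.3 (trend and robust) on log2(value + 1) with a pseudocount of 1, over all 25 libraries with group as the only term, two-sided, with Benjamini-Hochberg adjustment over all genes kept. A fold change on this scale understates the change of low genes. Each p-value measures the spread between rats. EdgeR 4.0.16 and DESeq2 1.42.0 on the recovered reads, other scalings, filters and pseudocounts, the 10 libraries alone and a replicate block were run as alternatives. So were the omission of each of the 10 libraries compared and the joint omission of sham 4, EP 3 and EP 4. The scripts were tested on simulated data.

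Genes were named by rule. The 12 genes of smallest p in each direction had no overlap between the groups, a symbol and a log2 of the mean CPM of at least 1. To these came up to 3 genes per list, genes the study names and genes DESeq2 called, of which 1 is not reported here. Krt8, Muc5b, Smgc, Cst3, Pdgfra, Mt2A, Mt3, Slc30a1 and the Slc30a and Slc39a genes beyond Slc39a8 and Slc39a4 were chosen after their values were seen. Members, lists and tests were chosen with earlier results of these data known, and no list was tested as a set. Of 836 list entries in 40 lists, those tested are counted beside each list. Promoters came from RefSeq.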

Additional observations from a re-analysis of the deposited data

Results flagged for a closer look

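Within each group of 5 libraries, a library was set apart on the log2(value + 1) scale where its gap to the nearest other library, as a share of the group's range, exceeded 0.71. Of 274 groups tested, 16 (5.84%) had such a library, and chance gives about 1 in 20. Gp2 stood at 813596 normalized counts in Cur gel replicate 4, against 233123 to 319171 in the others, a gap share of 0.749. Serpina11 stood at 253 normalized counts in Cur gel replicate 4, against 158 to 178 in the others, a gap share of 0.75. Gramd2a stood at 503 normalized counts in Cur gel replicate 4, against 185 to 231 in the others, a gap share of 0.776. Mmp3 stood at 363 normalized counts in Cur/ZNP gel replicate 2, against 1501 to 2427 in the others, a gap share of 0.747. Bmp4 stood at 784 normalized counts in Cur/ZNP gel replicate 2, against 1601 to 2071 in the others, a gap share of 0.735. Acp5 stood at 8996 normalized counts in Cur gel replicate 4, against 4485 to 5263 in the others, a gap share of 0.77. Tnfrsf11b stood at 2344 normalized counts in Cur/ZNP gel replicate 5, against 592 to 877 in the others, a gap share of 0.714. Emcn stood at 3260 normalized counts in Cur gel replicate 5, against 2607 to 2689 in the others, a gap share of 0.862. Nr1d1 stood at 10889 normalized counts in Cur/ZNP gel replicate 1, against 7916 to 8510 in the others, a gap share of 0.773. Cbln1 stood at 0 normalized counts in Cur/ZNP gel replicate 1, against 19.8 to 31.6 in the others, a gap share of 0.871. Adam7 stood at 8.63 normalized counts in Cur gel replicate 3, against 0 in each of the others, a gap share of 1.0. The NRF2 targets list stood at 5908 CPM summed in Cur/ZNP gel replicate 2, against 3759 to 4262 in the others, a gap share of 0.722. The differentiated keratinocytes and cornified envelope list stood at 14716 CPM summed in Cur/ZNP gel replicate 2, against 28094 to 36303 in the others, a gap share of 0.716. The salivary gland secretion list stood at 160373 CPM summed in Cur gel replicate 4, against 62823 to 73227 in the others, a gap share of 0.836. The autonomic and sensory neurons list stood at 1223 CPM summed in Cur/ZNP gel replicate 2, against 52.7 to 60.5 in the others, a gap share of 0.957. Cur/ZNP gel replicate 2 was the library set apart in 6 of these 16, of which 1 result is not given. The causes were not tested.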

How the results depend on the processing

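With 5 rats per group, the median 95% interval of a difference spanned 0.52 on the log2 scale to either side. Limma called 0 genes, and so did edgeR, other filters, pseudocounts and scalings, the omission of each library and the 10 libraries alone, whereas DESeq2 called 5. Of fits added after the data were seen, DESeq2 on the 10 libraries called 350 genes (218 higher, 132 lower) and limma with library weights called 1291 (240 higher, 1051 lower), but 0 on the 10 libraries alone, where the smallest adjusted p was 0.0643. The causes were not tested. The 568 higher genes at an unadjusted p under 0.05 became 877 with DESeq2, 900 with the 10 libraries alone, 1084 with edgeR and 1228 with DESeq2 on those 10, and 1374 and 1377 with weights over 25 and 10 libraries. The 1211 lower genes became 2313 and 2318 with those weights, and the split of higher to lower was 722 to 863 with edgeR. Leaving out 1 library gave 268 (without Cur gel replicate 4) to 895 (without Cur gel replicate 5) higher and 671 (without Cur gel replicate 4) to 1501 (without Cur/ZNP gel replicate 3) lower genes. The 241 genes wholly above became 259 to 570 (without Cur/ZNP gel replicate 2) and the 170 wholly below became 186 to 807 (without Cur/ZNP gel replicate 3), partly because 4 libraries separate more readily than 5. The Ceacam1 log2 difference ran from -1.63 to -1.07 with 1 library left out, and was -1.65 with weights (limma adjusted p = 0.0141), the only fit past the threshold. Its sign did not turn in any of these fits. Il1b turned to -0.081 and -0.068 with weights over 25 and 10 libraries, to -0.20 and -0.031 without Cur gel replicate 2 or 5 and to -0.65 without Cur/ZNP gel replicate 2, and its range with 1 library left out was -0.65 to 0.71. Tnf turned to -0.11 and -0.085 with weights and to -0.30, -0.18 and -0.42 without the same libraries, with a range of -0.42 to 0.44. Mt2A turned to 0.024 and 0.035 with weights, and was positive without Cur gel replicate 1 or 4, with a range of -0.26 to 0.060. The other named genes kept their direction, while the medians of 4 lists moved. That of the Ceacam family went from -0.65 to 0 with no filter and 0.031 with edgeR's filter. The aryl hydrocarbon receptor pathway went from 0.22 to 0.54 without Cur/ZNP gel replicate 2 and to 0.45 and 0.44 with weights over 25 and 10 libraries. The circadian clock went from -0.030 to 0.062 without Cur gel replicate 2, 0.058 without Cur/ZNP gel replicate 2, and 0.062 and 0.060 with weights. The autonomic and sensory neurons went from 0.65 to between 3.22 and 3.25 with edgeR and DESeq2. With the replicate block, limma called 0 genes, with 556 higher and 1255 lower below an unadjusted p of 0.05, and the Ceacam1 difference was -1.33 (adjusted p = 0.308). Same-numbered libraries correlated in their deviations at 0.0118, -0.365, -0.246, -0.186 and 0.414, so that the numbers did not pair the rats.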
